A study of Mus musculus with 24 samples.

Results

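In the 2 undifferentiated lines compared here, 850 H3K9ac peaks were strong in both, which is 1.41% of the 60461 peaks that the authors listed for the parental line on chromosomes 1 to 19. A region was counted when the parental day 0 peak had a fold enrichment of at least 4 and overlapped by 1 bp or more a knockout day 0 peak with a fold enrichment of at least 4. The lists are of the broad peak type, and the fold enrichment is the peak caller's own value, 1 for each whole peak whatever its width. The fold chose the regions, so the day 0 values below are a description with no test. A fold of at least 4 was reached by 2.33% of the parental and 5.84% of the 35909 knockout day 0 peaks. Of the 850 regions, 350 (41.2%, exact binomial 95% interval 37.8 to 44.6%) lay within 1 kb of a listed gene start and 500 did not.

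The parental line (labelled WT), 16.7 Tsix +/TST, is a line of female mouse embryonic stem cells. A G9a knockout (KO) was made from it, so both lines carry the Tsix TST allele. G9a is a histone methyltransferase for lysine 9 of histone H3. Both were taken undifferentiated (day 0) and after 10 days without LIF (day 10), of which 4 were in suspension and 6 on gelatin. There was 1 H3K9ac ChIP sample per line and day, with no replicate check on any peak value, and 3 total RNA libraries per line and day. The labels do not say how many knockout clones were used or whether the RNA libraries came from separate cultures, so the p-values below measure only the spread between these libraries.

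H3K9ac is an acetyl mark on the tail of histone H3 that is found mostly at the starts of genes that are being transcribed, and also at active enhancers. The same lysine can carry acetyl or methyl groups but not both at once, and G9a is a main source of its mono- and dimethylation in euchromatin. In embryonic stem cells broad H3K9ac at gene starts is typical of highly transcribed housekeeping genes, whose promoters are usually rich in CpG dinucleotides. ChIP-seq peak lists can also hold narrow, recurrent peaks at places where reads pile up for reasons of mapping or copy number.

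The promoters of 5 genes are shown as examples, because the regions fall into those at starts and those away from them. The first 3 sequences below belong to the genes with a single start in the RefSeq promoter table whose regions had the highest day 0 fold in the weaker line. The other two belong to the genes nearest to regions away from starts, chosen in the same way among genes with no parental day 0 peak at their start, a choice that bears on their CpG count. Each shows the 250 bases before the start, 5′ to 3′ on the gene's strand, from RefSeq on build GRCm38.p6, with every CpG in capitals.
Rps15: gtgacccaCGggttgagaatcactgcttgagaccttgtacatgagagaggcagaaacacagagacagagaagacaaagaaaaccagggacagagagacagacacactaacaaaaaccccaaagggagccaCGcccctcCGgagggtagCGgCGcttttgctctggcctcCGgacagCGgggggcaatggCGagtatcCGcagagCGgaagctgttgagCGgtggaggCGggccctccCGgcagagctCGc
Ccnl2: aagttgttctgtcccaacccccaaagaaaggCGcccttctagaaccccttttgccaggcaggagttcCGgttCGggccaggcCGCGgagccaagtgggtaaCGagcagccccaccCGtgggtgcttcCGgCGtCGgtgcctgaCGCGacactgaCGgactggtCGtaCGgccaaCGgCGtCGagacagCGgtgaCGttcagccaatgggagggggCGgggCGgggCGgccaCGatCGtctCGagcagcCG
Rpl28: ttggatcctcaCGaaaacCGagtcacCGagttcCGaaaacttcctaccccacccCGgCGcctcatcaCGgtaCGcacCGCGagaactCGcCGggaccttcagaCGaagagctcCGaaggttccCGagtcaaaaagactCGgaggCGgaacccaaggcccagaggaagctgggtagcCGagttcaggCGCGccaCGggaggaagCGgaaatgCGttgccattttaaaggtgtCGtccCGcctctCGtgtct
9230102K24Rik: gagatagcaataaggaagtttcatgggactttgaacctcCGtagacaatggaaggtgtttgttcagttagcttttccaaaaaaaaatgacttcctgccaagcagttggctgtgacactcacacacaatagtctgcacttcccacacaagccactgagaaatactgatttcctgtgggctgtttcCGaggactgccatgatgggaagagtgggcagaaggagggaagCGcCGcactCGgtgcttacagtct
Olfr1251: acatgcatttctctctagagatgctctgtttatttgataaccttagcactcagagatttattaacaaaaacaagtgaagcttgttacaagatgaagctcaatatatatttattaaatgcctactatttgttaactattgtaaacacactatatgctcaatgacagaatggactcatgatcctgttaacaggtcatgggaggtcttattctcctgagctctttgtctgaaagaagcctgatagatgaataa
The positions on GRCm38.p6 were chr10:80292181-80292430 for Rps15, chr4:155812239-155812488 for Ccnl2, chr7:4792715-4792964 for Rpl28 and chr10:110600400-110600649 for 9230102K24Rik, all on the plus strand. Olfr1251 was on the minus strand at chr2:89667885-89668134. The 3 promoters at strong regions held 14 (Rps15), 27 (Ccnl2) and 26 (Rpl28) CpG dinucleotides. The promoters of 9230102K24Rik and Olfr1251 held 5 and 0. Over all 32851 promoters in the table the median was 6, with quartiles of 2 and 16. Only 341 of the 457 genes with a start at one of the regions (74.6%) had a promoter in the table, under the 80% needed for a comparison over the set, so the count is given for these 5 genes only. The authors' peaks are on mm9, for which no genome was used here, so the sequence of the 500 regions away from starts was not read.

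Regions at starts were mostly wider than the others, though the widths of the 2 classes overlapped. The 350 regions at starts had a median width of 2572 bp (quartiles 1704 and 3456 bp), and 323 of them covered the start itself. The 500 regions away from starts had a median of 785 bp (quartiles 496 and 976 bp). Of these, 378 were narrower than 1000 bp and 145 of those were at least 750 bp wide. Of the 350 regions at starts, 27 were narrower than 1000 bp. Over all parental day 0 peaks the median was 682 bp, with 1516 bp at starts and 560 bp away from them. The overlapping knockout peaks were of like width, with medians of 2262 bp at starts and 797.5 bp away. The centres of the parental and knockout peaks were a median of 345 bp apart at starts and 17 bp apart away from starts. The widths of overlapping peaks bound this distance, so it is a description.

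The day 0 folds of the 2 classes also covered different ranges. In the parental list the median fold was 4.43 at starts and 6.11 away from them, and in the knockout list it was 4.84 and 6.28. No region at a start had a parental fold of 8 or more, while 118 of the regions away from starts did. Across the 500 regions away from starts the parental and knockout folds had a Spearman correlation of 0.59, against 0.20 across the 350 at starts. These are correlations across regions of 2 libraries chosen by the same 2 folds, and regions are not replicates.

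**Figure D1:**
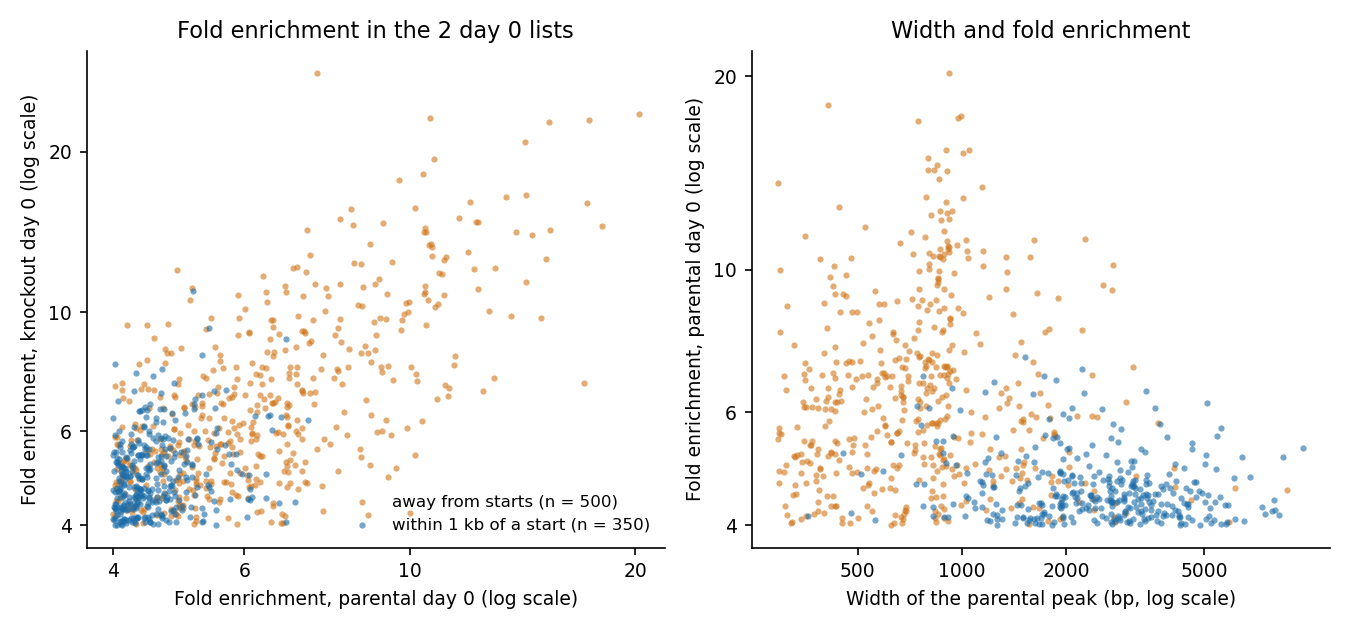
Each point is 1 of the 850 regions, at the fold enrichment of its parental and its overlapping knockout day 0 peak (left, log axes) and at the width of the parental peak in bp and its fold (right, log axes), with 350 regions within 1 kb of a gene start in blue and 500 away from starts in orange. The blue points lie below a parental fold of 8 and around a width of 2572 bp, and the orange points reach a fold of 20.2 at widths near 1000 bp.

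At starts, the region with the highest fold in the weaker line lay over Dok4, an adaptor protein of receptor tyrosine kinase signalling, at chr8:97399835-97401556 (mm9). Its fold was 6.83 in the parental and 8.92 in the knockout day 0 list, and 4.46 and 3.50 in the parental and knockout day 10 lists. Next came Rps15, a protein of the small ribosomal subunit, at chr10:79753576-79756963, with 6.48 and 6.44 at day 0 and 10.8 and 8.66 at day 10. Ccnl2, a cyclin that takes part in RNA splicing, followed at chr4:155186229-155187392 with 6.46 and 6.41 at day 0 and 9.33 and 9.55 at day 10. Fbxw4, an F-box protein of ubiquitin ligases, had 6.72 and 6.37 at day 0. Dis3l, a catalytic subunit of the cytoplasmic RNA exosome, had 7.30 and 6.28. Rpl19 and Rpl28, proteins of the large ribosomal subunit, had 6.21 and 6.41, and 5.65 and 5.65. Cyc1, cytochrome c1 of the respiratory chain, had 6.54 and 6.02. Also among the 10 strongest regions at starts were those of Atf5, with 5.67 and 7.17, and Zfml, with 5.52 and 6.09. Of the genes whose product is described here, those other than Dok4 serve processes that run in nearly every cell. Atf5 and Zfml are not described, so this is not a statement about all 10. Folds come from separately called lists, so a higher value at day 10 does not show that the mark rose.

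The widest region was 9667 bp over Neat1, the long noncoding RNA that scaffolds paraspeckles, at chr19:5842650-5852316. A region of 8437 bp covered the start of Ptma, which encodes the nuclear protein prothymosin alpha. A region of 8692 bp at chr6:117853268-117861959 lay in the span of Hnrnpf, an RNA-binding protein of splicing, 2910 bp from its listed start, and so counted among those away from starts. The gene table lists 1 start per gene, so other regions away from starts may also lie at a start that it does not list.

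Of the 350 regions at starts, 87 had at least 2 gene starts within 1 kb, and 73 of these had starts on both strands. Just inside the threshold lay regions at the starts of Cwc22, Chtf8, Topbp1 and Gm4890 and a region 12748 bp from Stox1. Their lower day 0 folds ran from 4.00093 (Gm4890) to 4.00694 (Cwc22). Just outside lay peaks at Diap1, Hspa8, Gsg2 and Rpl4 and one 39109 bp from the start of Eef1a1, with lower folds from 3.99559 (Gsg2 and Rpl4) to 3.99984 (Diap1).

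Over all 22882 autosomal genes 2.00% had their start at one of the regions, and of the 11547 with any parental day 0 peak at the start 3.96% did. Of 38 autosomal genes for cytosolic ribosomal proteins, 14 (36.8%) had their start at one of the regions, among them Rpl3, Rpl8, Rpl11, Rpl19, Rpl28, Rps6, Rps9 and Rps15. All 38 had some parental day 0 peak there. Of 27 housekeeping genes, 5 (18.5%) were at a region, among them Actb and Actg1 (cytoplasmic actins) and Hnrnpu (a nuclear RNA-binding protein). All 27 had some peak. Of 29 genes of naive pluripotency 1 (3.45%) had its start at a region, Fbxo15, an F-box protein made in undifferentiated stem cells, and 24 had some parental day 0 peak at the start. None of 28 lineage genes and none of 16 embryonic fibroblast markers did, and 9 and 4 of them had some day 0 peak. In lists of this size, shares of 0 or 1 gene are near those over all genes. The 10 embryonic stem cell markers, Pou5f1, Sox2 and Nanog among them, are all part of the naive pluripotency list. They had no such region at their starts, and 9 of the 10 had a weaker or unshared peak. The lists were chosen with earlier results of these data known, and gene starts at 1 bp of a wide peak count like those at its centre.

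The 500 regions away from starts had a median distance to a listed start of 104148 bp, against 31070 bp over all parental day 0 peaks away from starts. The distance was over 10 kb for 451, over 100 kb for 253 and over 1 Mb for 26. Within the span of a listed gene lay 105 (21.0%), against 49.5% of all parental day 0 peaks away from starts. The 12 regions with the highest fold in the weaker line were all of this kind. The highest was chr10:109947256-109948169, 914 bp wide and 89537 bp from the start of 9230102K24Rik. Its fold was 20.2 (parental) and 23.5 (knockout) at day 0, and 24.5 and 4.77 at day 10. The second, chr13:87325315-87326304, lay 1138915 bp from the start of Cox7c, a subunit of cytochrome c oxidase, and had folds of 17.4 and 22.9 at day 0 and 18.95 and 9.17 at day 10. A region of 902 bp at chr1:152144458-152145359, 21188 bp from Pdc, the retinal protein phosducin, had 14.3 and 20.8 at day 0 and 12.4 and 10.6 at day 10. One of 901 bp at chr2:89533588-89534488 lay 25547 bp from Olfr1251, an odorant receptor, with 15.4 and 14.3 at day 0 and 11.7 and 4.26 at day 10. One of 846 bp at chr14:123812556-123813401 lay inside Nalcn, a sodium leak channel of neurons, with 14.6 and 14.0 at day 0 and 12.8 and 10.9 at day 10. Of the 12, only the region 18946 bp from Cd69, an early activation antigen of lymphocytes, had no peak in the knockout day 10 list. Its folds were 14.3 and 16.6 at day 0 and 11.2 in the parental line at day 10. Of these 12 regions, 11 were therefore listed in all 4 samples.

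Set against other peak sets, the share at starts was intermediate. It was 16.7% over all parental day 0 peaks and 53.1% over the 559 peaks that were strong in the parental list only. It was 90.4% over the 3886 day 10 peaks that were strong in both lines by the same rule. Of those, 3511 lay at starts and 375 away. The share depended on the fold asked for. With a minimum fold of 3 there were 3655 shared regions and 69.3% of them lay at starts. With a minimum of 5 there were 340 regions and 10.3%, and with a minimum of 6 there were 202 and 3.47%. Regions away from starts thus made up nearly all of the shared day 0 peaks with the highest folds. The median width fell as well, from 1800 bp with a minimum fold of 3 to 843.5 bp with 5 and 831.5 bp with 6. The parts of width and of signal in these folds were not told apart.

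**Figure D2:**
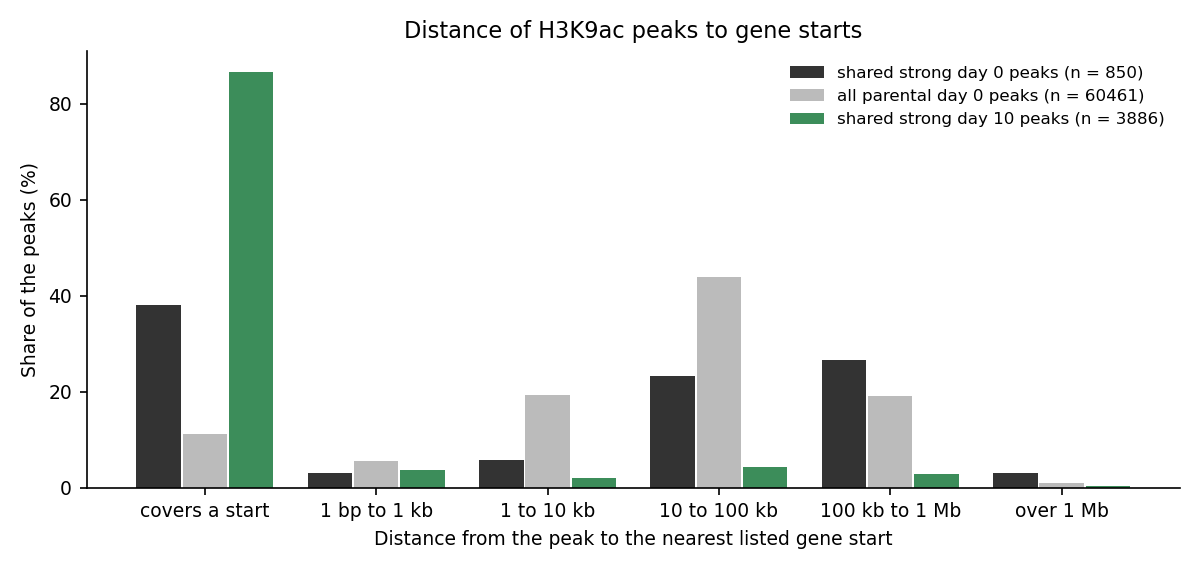
Bars give the share of peaks (%) in 6 classes of distance to the nearest listed gene start, for the 850 shared strong day 0 peaks, all 60461 parental day 0 peaks and the 3886 shared strong day 10 peaks. Of the shared strong day 0 peaks 38.0% cover a start and 26.7% lie 100 kb to 1 Mb away, while 86.7% of the shared strong day 10 peaks cover a start.

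Regions were spread over all 19 autosomes, from 22 on chromosome 19 to 61 on chromosome 7. The share at starts was highest on chromosomes 11 (65.0%) and 7 (63.9%) and lowest on chromosomes 12 (17.2%) and 14 (18.6%). Across the 19 chromosomes the number of regions at starts followed the number of listed gene starts (Spearman 0.73), while that of regions away from starts did so weakly (0.20). Per 100 listed gene starts, the number of regions at starts ran from 0.61 (chromosome 12) to 2.97 (chromosome 8). The number away from starts followed the chromosome's length, taken as the last base in any list (0.76), at 1.37 (chromosome 9) to 2.80 (chromosome 14) per 10 Mb. The 19 points share the same libraries, and these values are a description. The median gap to the next region was 596 kb for those at starts and 925 kb for those away. Whether they lay closer together than scattered places would was not tested. Another region lay within 100 kb for 65 and 46 of them.

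Day 10 was not used to choose the regions. In the parental line 813 of the 850 (95.6%, interval 94.0 to 96.9%) overlapped a day 10 peak by 1 bp or more, and in the knockout line 740 did (87.1%, 84.6 to 89.2%). Both lists held 724 (85.2%). Of all parental day 0 peaks, 22.4% overlapped the parental day 10 list, 22.2% the knockout list and 17.1% both. These are not like sets. A -log10 q of at least 2 was reached by 2.78% of all parental day 0 peaks and by 99.9% of the regions. The regions also had to be listed in the knockout at day 0. All 350 regions at starts were found in both day 10 lists, beside 82% (parental), 81.6% (knockout) and 77.2% (both) of all parental day 0 peaks at starts. A fold of at least 4 in all 4 lists was reached by 335 of the 350 (95.7%). Of all parental day 0 peaks 6.36%, and of those at starts 33.9%, had such a fold in both day 10 lists. Wide peaks overlap another list more easily, and the 297 peaks at starts that were strong in the parental line only were found in 98.3% (parental) and 97.6% (knockout). Leaving out the 350, 81.4% and 81.0% of parental day 0 peaks at starts were found. Within widths of 2000 bp or more, 100% of the 223 regions at starts and 93.5% of 3335 other peaks at starts were found in both day 10 lists.

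Away from starts, 463 of 500 regions (92.6%, interval 89.9 to 94.7%) were found in the parental day 10 list and 390 (78.0%, 74.1 to 81.6%) in the knockout list. Both lists held 374, neither held 21, only the parental list held 89 and only the knockout list held 16. Of all parental day 0 peaks away from starts 10.4% were found in the parental list, 10.3% in the knockout list and 5.12% in both. Leaving out the 500, the shares were 9.61% (parental) and 9.64% (knockout). Peaks away from starts that were strong in the parental line only were found in 65.6% and 48.5%. In the narrowest class, under 500 bp, 66.7% of 126 regions away from starts were found in both day 10 lists. Of 23256 other peaks away from starts in that class, 1.52% were. Those other peaks did not have to be strong or listed in the knockout at day 0. Of the 500, 205 (41.0%) had a fold of at least 4 in all 4 lists, while 0.836% of all parental day 0 peaks away from starts had it in both day 10 lists. With 1 sample per line and day these shares have no replicate check, and the intervals cover the counting of regions only. The depth of the ChIP libraries is not given in the sources used here.

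**Figure D3:**
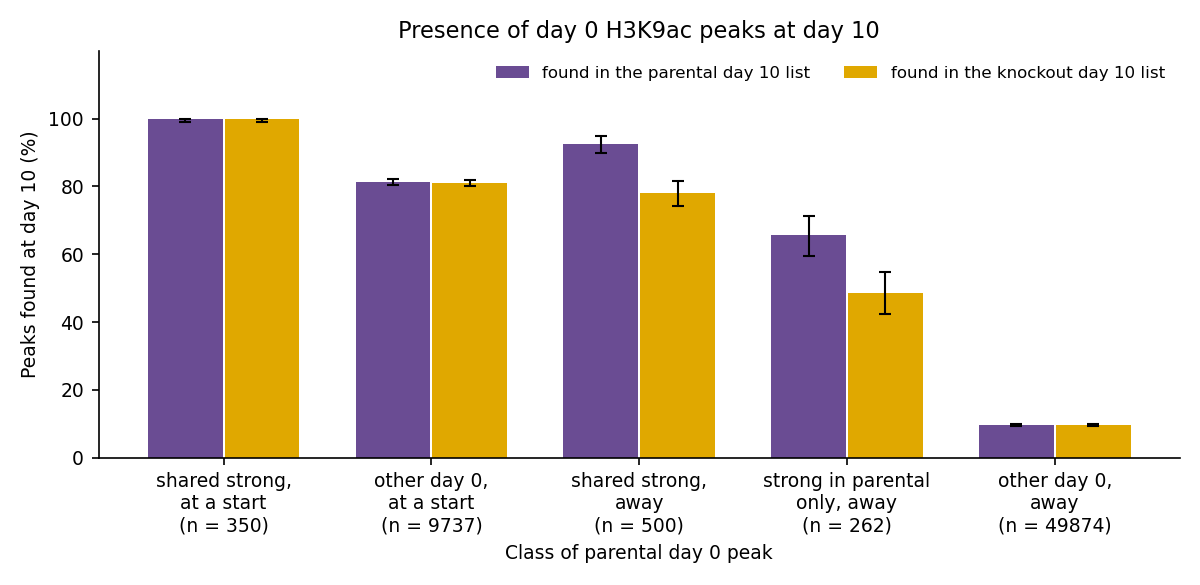
Bars give the share (%) of each class of parental day 0 peak that overlaps a peak of the parental (purple) or knockout (yellow) day 10 list, with exact binomial 95% intervals. The 350 shared strong regions at starts are all found, the 500 away from starts are found in 92.6% and 78.0%, and other peaks away from starts in 9.61% and 9.64%.

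The order of the 2 classes within a list differed between the days. At day 0 the median fold was higher away from starts (6.11 against 4.43 in the parental list). At day 10 it was higher at starts, with 6.63 against 5.49 in the parental list and 6.37 against 4.43 in the knockout list, among the regions found there. The regions were chosen by their day 0 folds, and a day 10 value is the highest of the overlapping peaks. The change of order is therefore a description. Among the day 10 peaks strong in both lines, the median parental day 10 fold was 5.54 away from starts and 5.21 at starts. Their median knockout day 10 fold was 5.19 away and 5.23 at starts. The strong shared day 10 peaks away from starts were in part the same places. Of the 500 day 0 regions away from starts, 203 (40.6%) overlapped one of the 375 strong shared day 10 peaks away from starts, which is 54.1% of those. At starts 335 of 350 (95.7%) did, which is 9.54% of the 3511. The few strong peaks seen at day 0 at starts were thus almost all among the many seen at day 10.

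Several features that often mark mapping or copy number effects were measured. At a parental fold of 4 to 5 the -log10 p had a median of 5.95 over 283 regions at starts and 6.50 over 139 away, and its highest value was 8.05 and 26.6. Of those 139, 26 exceeded the highest value at a start. A peak of given fold has a larger -log10 p where more reads lie in sample and background together. The region with the largest -log10 p, 165.7, was chr14:42637536-42638511, with a fold of 8.71 and 8.66 at day 0 and 8.57 and 7.67 at day 10. The peaks of the parental list with a -log10 p above 165.7 were not among the regions. One at chr2:98506733-98507455 had a -log10 p of 8764 at a fold of 2.63. Others at chr9:3000019-3009386 and chr9:3010990-3038241, at the beginning of the chromosome's listed sequence, had 805.7 and 525.3 at folds of 2.62 and 2.70. The peaks that came next, with a -log10 p from 165.7 down to 88.4, were regions away from starts. The exception was the peak at chr2:98502410-98503116 (144.7), which was not a region. Within 4 Mb of the first coordinate of a chromosome lay 5 regions at starts (1.43%) and 3 away (0.600%), against 0.703% of all parental day 0 peaks. Within 10 kb of a gene with a listed copy number above 1 lay 2 regions at starts (0.571%) and 1 away (0.200%), against 0.164% of all. Of 25 autosomal genes of duplicated or ribosomal loci, 1 (4%), Zfp91, had its start at a region, against 2.00% of all autosomal genes. In a list of this size a share of 1 gene is near that over all genes.

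The control used in peak calling, the treatment of duplicate reads and the placement of reads with several positions are not given in the sources used here. The part of mapping or copy number in these peaks was not tested.

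RNA of the nearby genes also differed between the 2 classes. RNA levels were scaled reads per kb of genomic span, since the authors' table counts reads over the whole gene. The 457 genes with a start at one of the regions had a median of 46.0 in parental day 0 cells (quartiles 19.8 and 104.9). The 11090 autosomal genes whose start was at another parental day 0 peak only had 11.9, and the 11335 with no such peak had 0.509. Of the 457 genes, 436 (95.4%) were above the median of all autosomal genes (2.93), and 233 (51.0%) were in the highest 10%. In the other 3 groups the median of the 457 genes was 50.4 (knockout day 0), 32.9 (parental day 10) and 34.2 (knockout day 10). By library, the median at day 0 was 57.3 in parental replicate 3 and 59.2 and 59.5 in knockout replicates 2 and 3. The other day 0 libraries had 28.7 to 39.0, and the day 10 libraries had 26.8 to 36.8. The genes nearest to the 500 regions away from starts had a median of 0.643 in parental and 1.21 in knockout day 0 cells. Their starts lay a median of 104148 bp from the region, so they are not like genes with a start at a region. For 153 regions (30.6%) the nearest gene was above the autosomal median in parental day 0 cells. The gene nearest to other parental day 0 peaks away from starts was above that median for 51.4%. Its median level was 3.28 in parental and 3.27 in knockout day 0 cells.

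**Figure D4:**
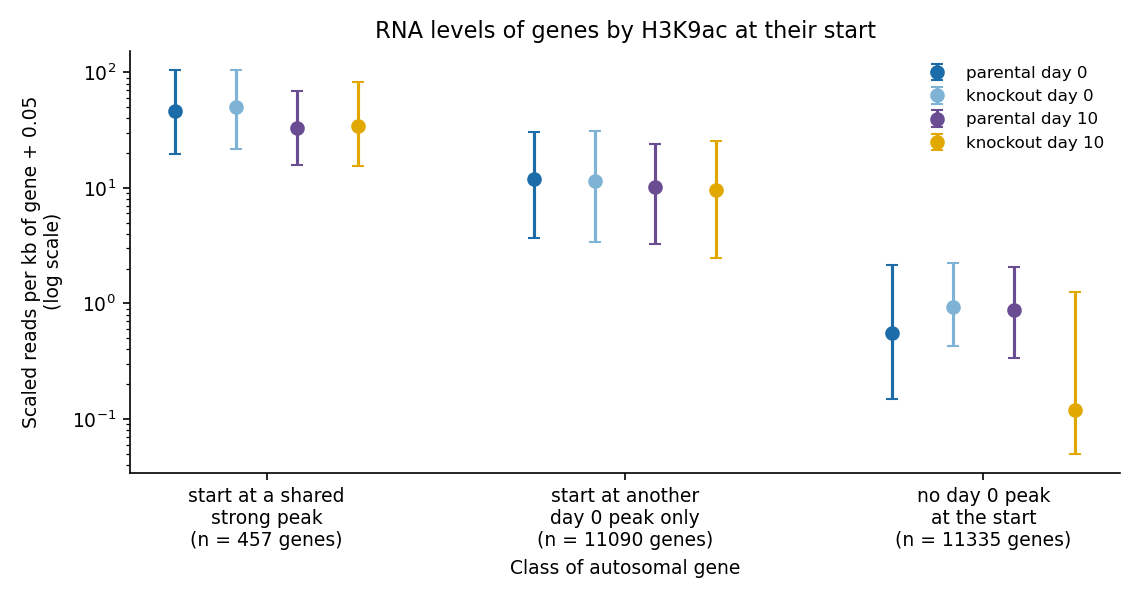
Points are the median and bars the quartiles over genes of the mean RNA level of each group of 3 libraries, in scaled reads per kb of gene span plus 0.05 (log axis), for 3 classes of autosomal genes. In parental day 0 cells the medians are 46.0 for the 457 genes at shared strong regions, 11.9 for genes at other day 0 peaks and 0.509 for genes with no day 0 peak.

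The genes with the highest level per kb were Actb, Malat1 (a nuclear long noncoding RNA), Rpl8, H2afx (histone H2A.X) and Pcbp1 (an RNA-binding protein). Actb had 13295, 21920 and 15750 scaled reads in the 3 parental day 0 libraries and 13958, 16339 and 16150 in the knockout. At day 10 it had 27896, 20001 and 17637 in the parental line and 31655, 31156 and 35998 in the knockout, where every library exceeded all day 0 libraries. Rps15 had 795.8, 1395 and 1163 in parental and 809.5, 1333 and 1244 in knockout day 0 libraries. At day 10 it had 1522, 1653 and 434.0 in the parental line and 1158, 1317 and 1044 in the knockout, so that all 4 groups overlapped. Rpl8 had 4103, 7219 and 5511 in parental and 3805, 4348 and 4468 in knockout day 0 libraries. Its day 10 values were 6086, 5794 and 2676 in the parental line and 5113, 5651 and 5318 in the knockout. In the parental line the days overlapped, and in the knockout every day 10 library lay above every day 0 library (log2 change 0.35, limma adjusted p = 0.441).

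Between the lines at day 0, limma called none of 20624 genes at a Benjamini-Hochberg adjusted p of 0.05 (0%; 788 had an unadjusted p under 0.05), and edgeR on recovered reads called none of 14884 (601 unadjusted). Of 450 tested genes with a start at a region, 4 had an unadjusted p under 0.05 in limma. The median log2 difference of knockout to parental over the 450 was 0.10, against 0.17 over all genes tested. These values turned on single libraries. Without knockout day 0 replicate 1, 71 of the 450 and 1949 of all genes had an unadjusted p under 0.05 in limma. The medians then were 0.39 and 0.10. Without any one of the other day 0 libraries, 0 to 26 of the 450 did, with medians of -0.06 to 0.26. In bulk RNA, fewer cells of a type and less RNA per cell cannot be told apart.

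From day 0 to day 10, few genes with a start at a region passed the test. In the parental line limma called 4.42% of all genes (417 or 2.02% higher, 494 or 2.4% lower) and 10 of the 450 (2.22%), 4 higher and 6 lower. In the knockout line it called 8.89% (502 or 2.43% higher, 1332 or 6.46% lower) and 15 of the 450 (3.33%), 4 higher and 11 lower. The median log2 change was -0.32 against -0.20 over all genes in the parental line, and -0.37 against -0.68 in the knockout. With RLE scaling these medians over all genes moved to -0.01 and -0.41, and the calls over all genes to 586 higher and 397 lower in the parental line and 784 and 699 in the knockout. The knockout calls among the 450 then were 9 higher and 6 lower. The counts also turned on single libraries. Leaving out parental day 0 replicate 3 or day 10 replicate 2 gave 466 or 467 calls in the parental line in place of 911. The 10 calls among the 450 became 2 without parental day 0 replicate 3 and 4 or 5 without day 10 replicate 3, 1 or 2. In the knockout line the total of 1834 became 2864 without day 0 replicate 1, with 86 calls among the 450. It ran from 199 to 502 without any one of the other 5 libraries, with 0 to 8 among the 450.

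Beside these counts, 2 libraries stood apart. Knockout day 0 replicate 1 and parental day 10 replicate 3 had 7273 and 8097 scaled reads over olfactory and vomeronasal receptor genes (normally expressed in sensory neurons), against 224.6 to 2681 in the other 10. In them the genes at the regions took 4.12% and 4.07% of scaled reads, against 4.98 to 7.64% elsewhere. Without both libraries, a choice made after the data had been seen, 2123 and 5390 genes were called in the parental and knockout line. Among the 450 there were then 17 calls (5 higher, 12 lower) and 139 (8 higher, 131 lower). The share called among the 450 in the knockout was 30.9%, against 26.1% of all genes. Depth also differed, since the 12 libraries held 2081129 to 30527844 recovered reads and the deep ones were parental day 0 replicate 3 and knockout day 0 replicates 2 and 3. Those 3 also had 0.115 to 0.129% of reads in Rn45s, the ribosomal RNA precursor, against 14.8 to 25.1% in the other 9. The part of depth and ribosomal reads in the day 10 changes was not tested.

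Dok4 rose in both lines. Its scaled reads were 35.4, 96.0 and 37.3 in parental day 0 libraries and 123.5, 714.5 and 324.8 at day 10. In the knockout they were 56.0, 22.8 and 22.3 at day 0 and 265.8, 380.6 and 453.0 at day 10. The days did not overlap in either line. The log2 change was 2.58 (SE 0.61, limma adjusted p = 0.0271) in the parental line and 3.51 (SE 0.61, adjusted p = 0.00673) in the knockout. The knockout call was lost without day 10 replicate 3 (adjusted p = 0.0528). The parental call was lost without day 0 replicate 1 or 3, without day 10 replicate 2 or 3, and with only the compared groups in the fit (adjusted p up to 0.143).

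Fbxo15 fell in both lines. It had 2377, 2568 and 3120 scaled reads in parental day 0 libraries and 571.3, 566.2 and 287.4 at day 10. In the knockout it had 2018, 4356 and 4268 at day 0 and 1019, 829.6 and 633.7 at day 10, again with no overlap between days. The log2 change was -2.56 (SE 0.36, limma adjusted p = 0.00111) and -2.04 (SE 0.36, adjusted p = 0.00697). The parental call held in all 14 alternatives, and the knockout call in 13, being lost without day 10 replicate 3 (adjusted p = 0.0536). Its region at chr18:85102980-85106643 was found in both day 10 lists, with folds of 4.06 and 5.23 at day 0 and 3.23 and 2.56 at day 10.

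In the parental line Fbxw4, Klf7 and Eif4g3 rose as well. Klf7 is a Krüppel-like transcription factor of neural development, and Eif4g3 is a scaffold of translation initiation. Fbxw4 had 102.6, 142.0 and 72.0 scaled reads at day 0 and 324.2, 430.3 and 845.0 at day 10, a log2 change of 2.26 (SE 0.49, limma adjusted p = 0.0172). Klf7 rose by 1.66 on the log2 scale (SE 0.39, adjusted p = 0.0256) and Eif4g3 by 1.48 (SE 0.37, adjusted p = 0.0358). In the knockout Eif4g3 rose by 1.42 (adjusted p = 0.0353), while Fbxw4 and Klf7 had log2 changes of 1.32 and 0.69 that did not pass (limma adjusted p = 0.0928 and 0.220). The difference between the lines was not tested. The Fbxw4 call was lost without parental day 0 replicate 3 or day 10 replicate 2 or 3. The Klf7 call was lost without any one library other than day 0 replicate 1, and with only the compared groups. The parental Eif4g3 call likewise held in only 1 of the 6 fits with a library left out.

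Among genes that fell in the parental line were Cdc5l, a core splicing factor, Zcchc10, a zinc-knuckle protein, and the noncoding transcripts D7Ertd143e and D430020J02Rik. Cdc5l had 1146, 926.9 and 1831 scaled reads at day 0 and 305.7, 539.5 and 459.9 at day 10. Its log2 change was -1.56 (SE 0.34, limma adjusted p = 0.0177) in the parental line and -1.67 (adjusted p = 0.0149) in the knockout. D7Ertd143e fell by 2.17 on the log2 scale (SE 0.40, adjusted p = 0.00676), and this call held in all 14 alternatives. In the knockout its log2 change was -1.55 (limma adjusted p = 0.0340), a call lost in all 6 fits with a library left out. The log2 changes were -1.60 for Zcchc10 (adjusted p = 0.0141) and -2.30 for D430020J02Rik (adjusted p = 0.0358). The Cdc5l call was lost without parental day 0 replicate 3 or day 10 replicate 1, and the Zcchc10 call without day 0 replicate 3, and both with only the compared groups in the fit. The call of D430020J02Rik held in 1 of 6 fits with a library left out.

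In the knockout line Actb and Actg1, the 2 cytoplasmic actins, rose by 1.09 (SE 0.26, limma adjusted p = 0.0257) and 1.02 (SE 0.29, adjusted p = 0.0453) on the log2 scale. In the parental line their log2 changes were 0.37 and 0.45, and neither passed (adjusted p = 0.534 and 0.492). Rpl29, of the large ribosomal subunit, Ube2s, a ubiquitin-conjugating enzyme of mitosis, Ncoa4, a receptor for ferritin turnover, and A530054K11Rik fell. Rpl29 had 37.4, 50.8 and 52.7 scaled reads at day 0 and 11.9, 5.48 and 8.09 at day 10, a log2 change of -2.38 (limma adjusted p = 0.0270). The log2 changes were -1.82 for Ube2s (adjusted p = 0.0217), -1.68 for Ncoa4 (adjusted p = 0.0458) and -2.58 for A530054K11Rik (adjusted p = 0.0457). Each of these knockout calls was lost when day 0 replicate 2 or 3 or day 10 replicate 2 or 3 was left out, and so were those of Cdc5l and Eif4g3. Over all alternatives the adjusted p of these calls reached up to 0.161, for Ncoa4, whose call held in 4 of 14. The call of Actb, Actg1, Eif4g3 and A530054K11Rik was also lost without day 10 replicate 1, and that of Actg1 without day 0 replicate 1 or with a pseudocount of 5. Ribosomal protein genes and actins have many processed copies, so their reads may be shared with these.

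Of the 14 listed ribosomal protein genes at regions (Rpl29 is not in the list), limma called 0 in either line from day 0 to day 10 (3 in the parental and 1 in the knockout line had an unadjusted p under 0.05), and edgeR also called 0. Their log2 changes ran from -1.65 to -0.08 (median -0.56) in the parental line and from -1.60 to 0.35 (median -0.17) in the knockout. Over the whole list of 38 the medians were -0.49 and -0.18, with 0 called by either tool and 6 and 5 at an unadjusted p under 0.05. Of the 5 housekeeping genes at regions, only Actb and Actg1 were called, and only in the knockout. Of 30 genes of naive pluripotency, limma called 21 lower in the parental and 14 in the knockout line, where 2.4% and 6.46% of all genes were called lower, and edgeR called 21 and 11.

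**Figure D5:**
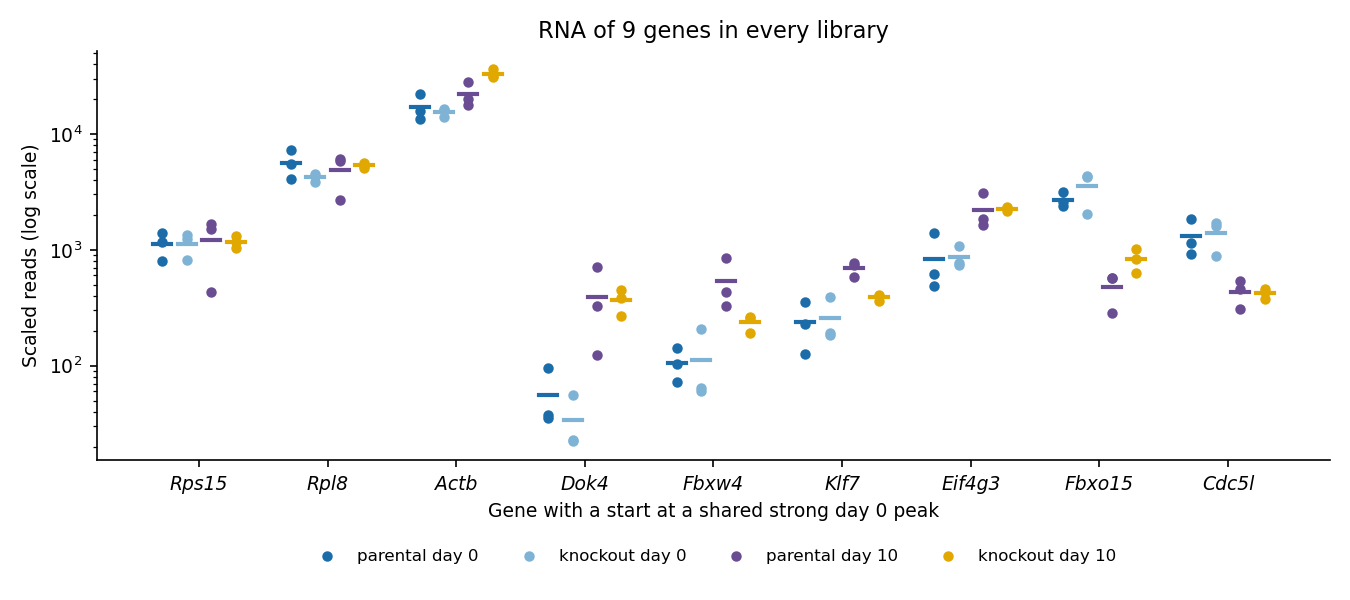
Points are the scaled reads of each RNA library (log axis) and short lines the means of 3 libraries for 9 genes whose start lies at a shared strong day 0 region, in the 4 groups. Dok4 libraries lie higher and Fbxo15 libraries lower at day 10 than at day 0 in both lines, while those of Rps15 overlap between days.

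The cell state behind these values was checked with markers. The summed scaled reads of 10 embryonic stem cell markers were 31135 to 47463 in parental and 30456 to 38086 in knockout day 0 libraries. At day 10 they were 3449 to 8013 and 10005 to 13182. Of 16 markers of embryonic fibroblasts, which can be present as feeder cells, the sum was 1919 to 10851 and 2122 to 4683 at day 0, and 3017 to 9352 and 4923 to 12518 at day 10. In parental day 0 replicate 1 Col1a1 had 3997 scaled reads against 91.9 and 47.8 in the other two, Col1a2 had 1570 against 79.3 and 80.6, and Col3a1 had 640.2 against 20.9 and 13.4. Knockout day 0 replicate 1 was likewise the highest of its group, with 924.7 for Col1a1 against 64.8 and 68.4, and 165.0 for Col3a1 against 17.3 and 23.9. Some of the 16 did not go this way. In parental day 0 replicate 1 Twist1 had 0 against 41.8 and 39.3, and Mmp2 had 350.1 against 772.4 and 349.5. In knockout day 0 replicate 1 Twist1 had 31.1 against 54.7 and 54.4, and Mmp2 had 298.9 against 364.1 and 348.2. Lum was at 0 in all 3 parental day 0 libraries. No start of these 16 markers lay at a shared strong region, and 4 had some parental day 0 peak. The part of such cells in the RNA changes was not tested.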

How the data were processed

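H3K9ac was measured by ChIP-seq and total RNA by RNA-seq after ribosomal depletion, per the labels' protocols. Per the submitters' processing notes, the authors used Novoalign and MACS2 for the ChIP data and TopHat and HOMER for the RNA, on mm9. Versions are not given in the sources used here. The deposited peak lists hold for each peak a fold enrichment and a -log10 p and -log10 q, as the authors' caller gave them. The deposited gene table holds a signal, namely the authors' reads brought to 1 total in every library, not the counts that the design had assumed, and gave the gene starts. Whole reads were recovered from it (100% of values whole within 0.006). Genes above 1 in at least 3 libraries were tested with limma 3.58.1 on log2(value + 1), with a trended and robust prior and all 12 libraries fitted together, and recovered reads with edgeR 4.0.16 (TMM, quasi-likelihood). Errors are SE, and fold changes on this scale understate those of low genes. Overlaps were counted in Python 3.11.15 with pandas 2.3.3. Methods were tested on simulated data. Gene names follow a rule: the strongest and widest regions, those next to the threshold, list members, the highest levels and the largest changes that passed. The 10 strongest regions at starts and the width limit of 1000 bp were added after the values were seen. The regions, lists and tests were chosen with earlier results of these data known. Some genes of the lists are not reported here by name. H3K9me2 samples, the allele table and inputs were not used here, and 2 inputs have conflicting day labels.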

Additional observations from a re-analysis of the deposited data

How the results depend on the processing

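The number of regions (850) moved to 3655, 340 and 202 with a minimum fold of 3, 5 and 6, and to 305 where both peaks needed a -log10 q of at least 5. The share at starts (41.2%) moved to 69.3, 10.3 and 3.47% with those folds and to 7.87% with that q, and the median width (1086.5 bp) to 1800, 843.5, 831.5 and 824 bp. An overlap of at least 50% of both peaks gave a median width of 946 bp. The share found at day 10 in the parental line (95.6%) moved to 99.01% with a fold of 6 and 98.4% with the q minimum. In the knockout line (87.1%) it moved to 89.96 and 84.1% with a fold of 3 and 5 and to 89.8% with the q minimum, and in both lines (85.2%) to 88.4% with a fold of 3 and 88.5% with the q minimum. Asking for a day 10 fold of at least 4 gave 81.2, 67.4 and 63.5% (parental, knockout, both), and for day 10 peaks covering at least 50% of the region 89.5, 78.5 and 75.2%. The cause of these shifts was not tested, beyond the larger or smaller sets that each setting makes. The other settings of these 6 results, among them start distances of 500 bp to 5 kb and regions counted on the knockout list, stayed within the main counting interval, or within 1.5 times for the number.

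For genes called from day 0 to day 10, fitting only the compared groups gave 396 (parental) and 4105 (knockout) in place of 911 and 1834, and 3 and 27 in place of 10 and 15 among genes at the regions. In the knockout a pseudocount of 5 gave 1054 and edgeR 1046. Without knockout day 0 replicate 1 and parental day 10 replicate 3, a choice made after the data had been seen, the counts were 2123 and 5390, with 17 and 139 at the regions. Leaving out 1 library gave 466 to 1047 (parental) and 199 to 2864 (knockout), with 2 to 9 and 0 to 86 at the regions. Where 1 group was left with 2 libraries, the fit took its spread from all groups. The count between the lines at day 0 was 0 in every fit. Replicate numbers are shared between groups, and the correlations of deviations of same-numbered libraries ran from -0.40 to 0.58. At day 0, 2 of the 3 pairs of knockout and parental libraries had 0.43 and 0.58, but in no comparison did all 3 pairs exceed 0.1, so the numbers were not taken to pair the libraries. With the replicate block 0, 850 and 1612 genes were called, and 0, 9 and 15 at the regions, and the calls of Actg1 and Ncoa4 (knockout) and D430020J02Rik (parental) were not made. The effect of depth, 2081129 to 30527844 recovered reads per library, on these counts was not tested.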
